A study of Homo sapiens with 10 samples.

Results

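The genes described here encode the TRAF adaptors TRAF1, TRAF2, TRAF3, TRAF5 and TRAF6, the inhibitor of apoptosis proteins cIAP1 (BIRC2) and cIAP2 (BIRC3), the kinase NIK (MAP3K14) and the IκB kinases IKKα (CHUK) and IKKε (IKBKE). They are 10 of the 19962 protein-coding genes annotated on chromosomes 1 to 22 and X. They were chosen by name, for their place downstream of the TWEAK receptor, with earlier results of these data known. H3K27ac ChIP-seq peaks were taken wherever they overlapped the gene body or the 50 kb on either side, a stretch called the window below. Peaks of all lists that overlapped by 1 bp were merged, which gave 90 regions in the 10 windows of 76044 regions in all. The BIRC2 and BIRC3 windows overlap on chromosome 11, so 4 of the 90 regions belong to both.

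SKBR3 and MDA-MB-453 are established HER2 breast cancer cell lines. Each was profiled untreated and after TWEAK at 10 ng/ml for 48 h, with the ligand replenished at 24 h. All 4 groups were starved for 8 h in Optimem, so the untreated cells carry the starvation too. Each group had 2 libraries, giving 8 peak lists. The study's methods call the replicates of its cell line ChIP-seq biological, and the labels say no more about how the libraries of a group were separated.

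TWEAK is a cytokine of the TNF family and binds the receptor Fn14 (TNFRSF12A). In resting cells, TRAF2, TRAF3 and the cIAPs form a complex that holds NIK at a low level. When the receptor is engaged the complex is recruited and degraded, NIK accumulates and activates IKKα, and the non-canonical NF-κB route is switched on. TRAF1 and BIRC3 are themselves textbook targets of NF-κB, and IKKε is an inducible relative of the IκB kinases. H3K27ac is a histone mark of active promoters and enhancers.

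Covered length and rank were compared. The covered length is the number of kb of a window that lie under peaks of a list. The percentile is the position of a region's highest peak when all peaks of that list are ordered by the authors' score, so that 100 is the strongest peak and 0 means that no peak was listed. A percentile says where a peak stands within its own library, and is not a read count. The lists held between 36148 and 37813 peaks in MDA-MB-453 and between 43684 and 51687 in SKBR3, with SKBR3 TWEAK replicate 2 the longest. The files hold peaks and no read counts, which leaves sequencing depth unknown, and a missing peak cannot be told apart from a signal just under the caller's threshold. Libraries of a group differed by a median of 6.62 and 7.74 percentile points in untreated and TWEAK-treated SKBR3 cells, and by 3.44 and 3.46 points in MDA-MB-453. ERBB2, the HER2 gene, had a start site peak at the very top of all 8 lists. Peaks at the start sites of the epithelial markers were listed in all 8 lists for 9 of 10 genes. The exception was E-cadherin (CDH1), whose start site had no peak in any SKBR3 list. Of 8 markers of leukocytes, endothelium and stroma, 6 had no peak at the start site in any list. The other 2 had one in all 8 lists. They were CDH5, at percentiles between 89.2 and 94.0, and COL1A1, between 79.3 and 99.7.

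After TWEAK, SKBR3 cells carried more H3K27ac-covered DNA around TRAF1, BIRC2, BIRC3 and IKBKE. These were 4 of the 10 windows, against 1.58% of 18244 windows called higher in the same contrast (limma over all windows, Benjamini-Hochberg adjusted p under 0.05). The BIRC2 and BIRC3 windows share 4 regions, so they do not count as independent windows. The calls also rest on a spread shared with MDA-MB-453. With the SKBR3 libraries alone, 0 of the 10 windows and 0 of 17373 in all were called. The median difference over the 10 windows was 0.26 on the log2 scale of kb plus 1, against 0.01 over all windows tested. No window of the 10 was called lower. In MDA-MB-453, 0 of the 10 windows were called in either direction by limma, where 0% of all windows were called, and 0 of the 10 had an unadjusted p under 0.05 (380 of 18244 did).

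**Figure D1:**
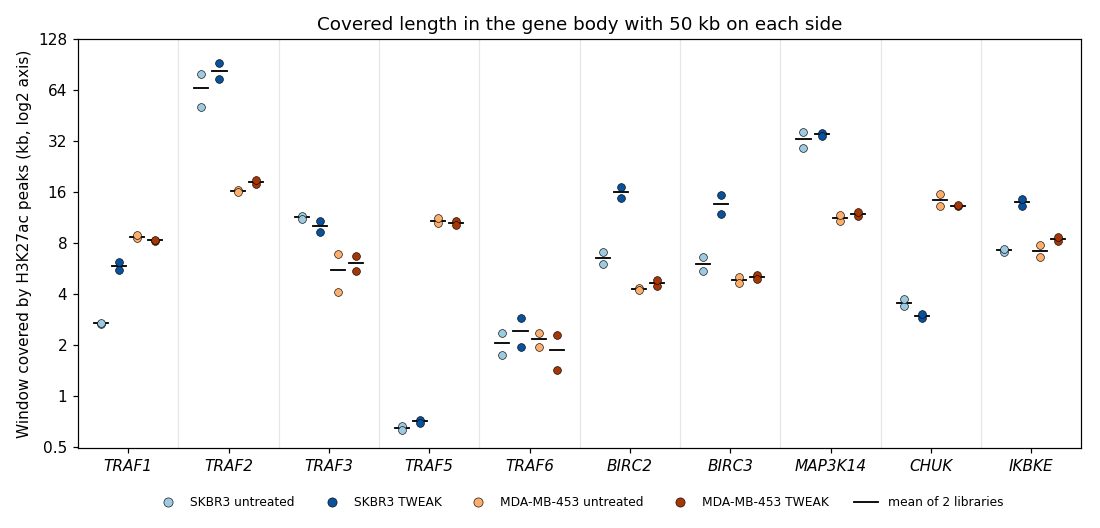
Length of each gene's window covered by H3K27ac peaks, in kb on a log2 axis, for the 10 genes. Each point is 1 library and each black line the mean of 2 libraries. TWEAK-treated SKBR3 libraries lie above the untreated ones without overlap for TRAF1, BIRC2, BIRC3 and IKBKE, and by a small margin for TRAF5. They lie below the untreated ones without overlap for TRAF3 and CHUK. TRAF5 and CHUK lie lower in SKBR3 than in MDA-MB-453.

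The TRAF1 window (TRAF1 is an adaptor without a RING domain, induced by NF-κB) had 2.65 and 2.70 kb covered in the untreated SKBR3 libraries and 6.16 and 5.49 kb with TWEAK. Both TWEAK values lie above both untreated values, and the difference was 0.89 on the log2 scale (SE 0.11, limma adjusted p = 0.0171). In MDA-MB-453 the window held 8.48 and 8.84 kb untreated and 8.20 and 8.33 kb with TWEAK. The untreated SKBR3 libraries were thus the lowest of the 4 groups.

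Most of the added length at TRAF1 was a single region over the start site of its canonical transcript, chr9:120924658-120927651 (hg38), which takes in an exon and UTR of the gene. It was listed in neither untreated SKBR3 library and had a percentile of 71.0 and 75.6 in the TWEAK libraries, with peaks of 2599 and 2757 bp. No MDA-MB-453 list held a peak there. The mean difference in SKBR3 was 73.3 percentile points. Only the TWEAK lists brought this region into the rank test, whose outcome that presence already fixed, so no p is given. The authors' fold enrichment of the peak was 5.91 and 6.62. A start site further upstream on the same gene, within chr9:120928877-120929409, had a peak in 3 of the MDA-MB-453 libraries, at percentiles of 10.1, 39.9 and 8.4, and in no SKBR3 library.

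BIRC3, which encodes the inducible ubiquitin ligase cIAP2, had a peak at its start site in all 8 lists, within chr11:102312176-102318982. Its percentile was 69.7 and 55.8 in untreated SKBR3 cells and 89.4 and 94.2 with TWEAK, so that the groups did not overlap. The difference was 29.1 points (SE 4.85, limma adjusted p = 0.0296). In MDA-MB-453 the values were 61.6 and 57.4 untreated and 67.2 and 70.4 with TWEAK, a difference of 9.36 points (SE 4.85, limma adjusted p = 1). The same region widened in SKBR3. Its peaks covered 2615 and 2127 bp untreated, in 2 separate peaks per library, and 6169 and 6807 bp with TWEAK, in a single peak that spanned both. This was a difference of 1.46 on the log2 scale of bp (SE 0.17, limma adjusted p = 0.0422), and it was the only width called for TWEAK in SKBR3 among the 26 regions that every list held. Over all 17704 such regions 0.153% were called wider.

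A region upstream of BIRC3, chr11:102305443-102307449, lies outside protein-coding genes about 11 kb from the nearest start site. It was listed in all 4 SKBR3 libraries and in no MDA-MB-453 library. Its percentile was 37.5 and 41.2 untreated and 73.6 and 87.8 with TWEAK, a difference of 41.3 points (SE 5.24, limma adjusted p = 0.0127). The peak covered 339 and 320 bp untreated and 1050 and 2007 bp with TWEAK. The covered length of the BIRC3 window was 6.62 and 5.45 kb untreated and 11.85 and 15.23 kb with TWEAK, a difference of 1.04 on the log2 scale (SE 0.15, limma adjusted p = 0.0254).

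BIRC2 encodes cIAP1, the constitutive member of the pair, and lies next to BIRC3. At its own start site, within chr11:102343310-102348767, the percentile was 91.1 and 87.4 untreated and 91.0 and 86.9 with TWEAK in SKBR3, and between 95.8 and 97.3 in MDA-MB-453. The TWEAK difference in SKBR3 was -0.31 points (SE 1.85, limma adjusted p = 1). Peaks at this site covered 1638 and 1916 bp untreated and 3406 and 5458 bp with TWEAK, a log2 difference of 1.28 (SE 0.23) that did not pass the threshold (limma adjusted p = 0.0966). The BIRC2 window went from 7.03 and 6 kb to 14.70 and 17.19 kb, a difference of 1.17 on the log2 scale (SE 0.13, limma adjusted p = 0.0145). That window contains the BIRC3 start site and the region upstream of it, so the BIRC2 and BIRC3 values are not independent. A region in an intron of TMEM123, chr11:102406846-102409152, was in both TWEAK lists of SKBR3 and in neither untreated list, at percentiles of 24.6 and 26.2. All 4 MDA-MB-453 lists held it, at percentiles between 11.1 and 37.6.

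IKBKE, the gene of IKKε, showed the same direction at its start site and downstream. Within chr1:206468175-206471349, at the start site, the percentile was 40.6 and 32.7 untreated and 64 and 77.6 with TWEAK in SKBR3, and between 65.6 and 71.3 in MDA-MB-453. The untreated SKBR3 libraries were the only low ones, and the TWEAK difference there was 34.1 points (SE 5.23, limma adjusted p = 0.0233). Downstream, chr1:206503402-206504958, which lies between IKBKE and RASSF5 outside protein-coding genes, had a percentile of 1.6 in untreated replicate 1, no peak in untreated replicate 2, and 71.0 and 72 with TWEAK. Its mean difference was 70.7 points, and no MDA-MB-453 list held it. It too met the minimum of 2 lists only through the TWEAK libraries, and no p is given. The covered length of the IKBKE window was 7.09 and 7.38 kb untreated and 13.11 and 14.56 kb with TWEAK, a difference of 0.85 on the log2 scale (SE 0.12, limma adjusted p = 0.0237). RASSF5 starts 3.4 kb from this downstream region, nearer than IKBKE does, and the window of IKBKE takes in part of RASSF5.

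**Figure D2:**
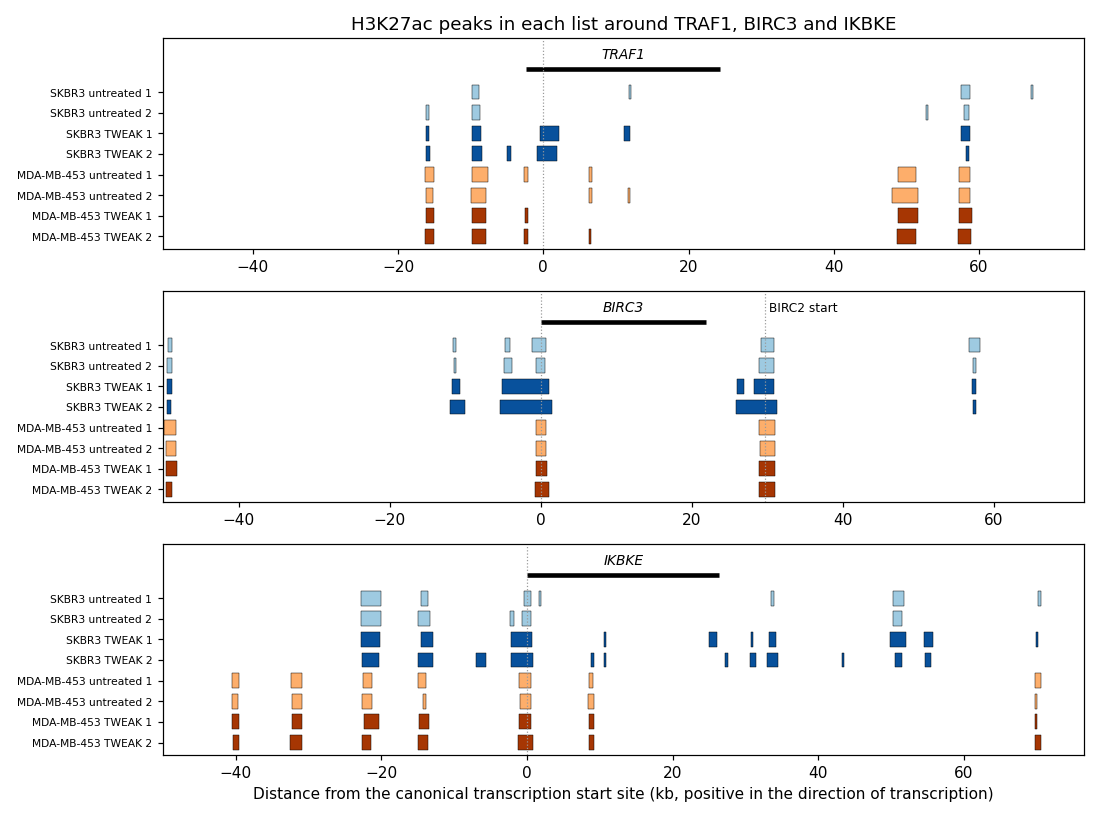
Peaks of each list around TRAF1, BIRC3 and IKBKE, drawn to scale against the distance in kb from the canonical transcription start site, positive in the direction of transcription. Each row is 1 library, each box 1 peak and each black bar the gene body. The 2 TWEAK-treated SKBR3 rows hold a peak at the canonical TRAF1 start that no other row has. At the BIRC3 start they hold a single wide peak where the untreated SKBR3 rows hold 2 shorter ones.

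Of the 90 regions of the 10 windows, 69 were in at least 2 lists and were tested by rank, and the other 21 were in a single list and were not. In SKBR3, limma called 9 of the 69 higher with TWEAK and 1 lower, against 4.41% and 1.15% of 57957 regions tested (adjusted p under 0.05). Of these 10, 6 had entered the test only through the group in which they were high, and their calls restate presence. Without any region that entered in this way, a restriction chosen after the data were seen, 4 of 54 regions were called higher and 0 lower, against 2.17% and 0.8% of 47400. They were the start regions of BIRC3 and IKBKE, the region upstream of BIRC3, and chr17:45262126-45266850. The last spans the far end of MAP3K14, 52.5 kb from the start of that gene, and was picked out after its values were seen. It had percentiles of 52.4 and 46.6 untreated and 68.8 and 66.8 with TWEAK, a difference of 18.3 points (SE 3.46, limma adjusted p = 0.0426), and no peak in MDA-MB-453. When the test was run on regions in all 8 lists, 0 were called for TWEAK in SKBR3, the starts of BIRC3 and IKBKE included. The IKBKE window also held 3 weak regions seen with TWEAK in SKBR3 and in no other group, at chr1:206481018-206481351, chr1:206501064-206501948 and chr1:206525008-206526154, with a percentile of 24.5 or less in every list. By presence alone, 6 of the 90 regions were gained in SKBR3, meaning that they were listed in both libraries with TWEAK and in neither without it, where 3.72% of all regions were gained. The region lost in SKBR3 was 1 of 90, where 1.11% of all were lost. With every list cut to the size of the shortest, 2 regions were gained and 2 lost. When a library is left out, the 1 list left decides for its group. The share of all regions is not given for these alternatives, so their counts cannot be set against the shares above. Leaving out SKBR3 TWEAK replicate 1 raised the gained count to 15. The lost count became 4 without SKBR3 untreated replicate 1, 7 without SKBR3 untreated replicate 2 and 5 without SKBR3 TWEAK replicate 1.

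These calls rest on the spread shared with the MDA-MB-453 lists, whose libraries were more alike. The region upstream of BIRC3 and chr17:45262126-45266850 had no peak in any MDA-MB-453 list. Those lists therefore added no spread there, which lowers the SE and p given for both regions. With the 4 SKBR3 libraries alone, an alternative chosen after the data were seen, limma called 0 of 54 regions, 0 of 10 windows and 0 of 35 widths around these genes, and 0 of 44282 regions and 0 of 17373 windows in all. At an unadjusted p under 0.05 those fits held 9 regions, 4 windows and 4 widths of these genes, and 4691 of 44282 regions, 1382 of 17373 windows and 2256 of 30481 widths in all. The adjusted p was then 0.261 for the BIRC3 start region and between 0.280 and 0.300 for the 4 windows. The untreated and TWEAK values of these features do not overlap in SKBR3. The same was true of the TRAF3, TRAF5 and CHUK windows, which were not called, with TRAF3 and CHUK lower after TWEAK. The share of all features that separate in this way is not given, so the lack of overlap does not set these apart. Leaving out 1 library also changed the counts. When either SKBR3 TWEAK library was left out, the TRAF1 start region and the weak IKBKE regions named above were in a single list. They fell below the minimum of 2 lists and were not tested, so a lower region count there is partly fixed by the filter. The 10 regions became 5 without MDA-MB-453 untreated replicate 1 or 2, without MDA-MB-453 TWEAK replicate 1 or without SKBR3 TWEAK replicate 2, and 6 without MDA-MB-453 TWEAK replicate 2. The 4 windows became 1 without SKBR3 untreated replicate 1 and 0 without SKBR3 untreated replicate 2, SKBR3 TWEAK replicate 2 or any of the MDA-MB-453 libraries. The BIRC3 width was not called without SKBR3 untreated replicate 1, SKBR3 TWEAK replicate 2 or any of the MDA-MB-453 libraries. With 100 kb on each side in place of 50 kb, 0 of the 10 windows were called.

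In MDA-MB-453, limma called 0 of the 69 regions for TWEAK, where 0% of all regions were called. At an unadjusted p under 0.05 there were 6 of the 69 and 2805 of all 57957. None of the 90 regions was gained in that line, where 0.679% of all were, and 1 was lost, where 0.701% of all were. The lost region, chr1:211335969-211336698 in an intron of TRAF5, had percentiles of only 7.3 and 6.1 in the untreated lists. In width, 0 of the 26 regions were called, where 0.00565% of 17704 were. The test of the difference between the lines called 3 of the 69 regions, where 1.67% of all were called. They were the TRAF1 start region, the region downstream of IKBKE and an intronic TRAF3 region. Each had entered the test only through 1 SKBR3 group, with no peak in MDA-MB-453, so these calls restate presence. Among the 51 regions that entered without any single group, 0 were called, where 0.374% of 43871 were called higher and 0.116% lower. The same test called 0 of the 10 windows by limma, where 0% of all windows were called, with 4 of the 10 and 1634 of 18244 at an unadjusted p under 0.05. It called 0 of the 26 widths, where 0% of all were called, with 3 of the 26 and 1224 of 17704 at an unadjusted p under 0.05.

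**Figure D3:**
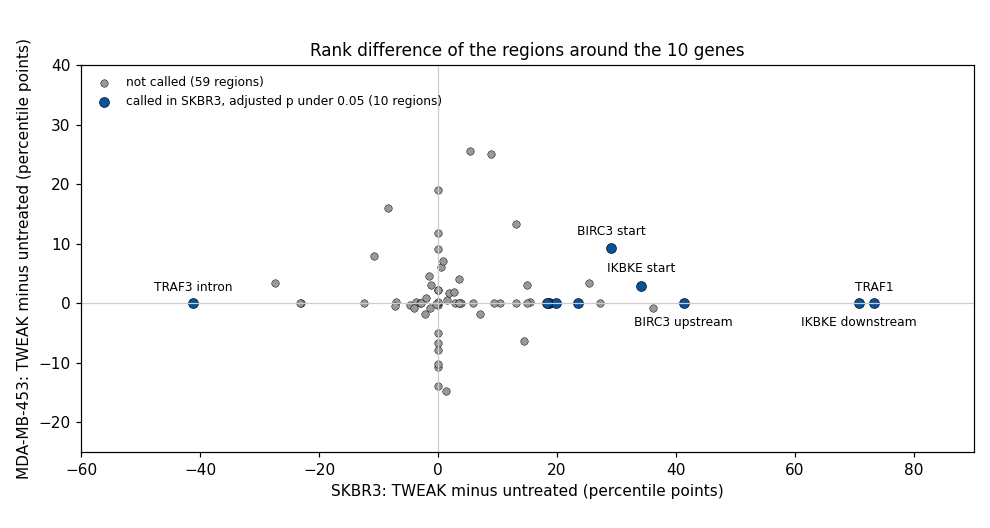
Difference in percentile points between TWEAK-treated and untreated cells in SKBR3 (horizontal axis) and MDA-MB-453 (vertical axis), for the 69 regions tested around the 10 genes. The 10 regions called in SKBR3 are in blue, and 6 of them entered the test only through the group in which they were high. Those called lie along the horizontal axis, from -41.1 to 73.3 points in SKBR3, with no MDA-MB-453 difference above 9.36 points.

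The sequences that follow are a selection of stretches of the BIRC3, TRAF1, IKBKE and TRAF2 regions. Each holds matches to the NF-κB consensus, the motif of the factor that this pathway activates. Other regions of the windows held matches too. The IKBKE start region held 2 and the whole merged TRAF2 start region 9. The BIRC2 start region, whose rank was not called for TWEAK, held 2. They were read from the hg38 reference on the plus strand, 5′ to 3′, with the motif in capitals. The BIRC3 stretch is the 250 bases before its RefSeq start (GRCh38.p14), chr11:102317234-102317483. It holds 2 matches and no annotated exon.
BIRC3 promoter: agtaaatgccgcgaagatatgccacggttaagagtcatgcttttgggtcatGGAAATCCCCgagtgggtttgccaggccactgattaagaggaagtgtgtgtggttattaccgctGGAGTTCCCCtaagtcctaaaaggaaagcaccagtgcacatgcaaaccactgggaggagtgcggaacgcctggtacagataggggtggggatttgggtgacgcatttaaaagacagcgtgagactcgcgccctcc
TRAF1 start region, chr9:120926549-120926578: ccttcctggtGGAAATCCCCagggtgttgg
IKBKE downstream region, chr1:206503950-206504039: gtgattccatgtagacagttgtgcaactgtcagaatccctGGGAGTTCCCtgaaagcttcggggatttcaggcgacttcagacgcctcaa
TRAF2 intron, chr9:136902528-136902649: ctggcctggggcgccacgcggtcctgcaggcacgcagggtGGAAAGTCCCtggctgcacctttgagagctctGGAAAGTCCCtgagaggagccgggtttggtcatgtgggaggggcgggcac
The upstream match of the BIRC3 promoter and the match at TRAF1 carry the same letters. The TRAF1 stretch lies in an exon and UTR, the IKBKE stretch overlaps an exon of a non-coding RNA, and the TRAF2 stretch overlaps no annotated exon. The IKBKE stretch was added after its values were seen. The TRAF2 stretch was taken from a region gained with TWEAK in MDA-MB-453, found by a merge chosen after the data were seen.

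The NF-κB consensus was searched on both strands, with letters that may overlap other motifs, in the 1000 bp around the midpoint of each region. That stretch runs past the ends of 32 of the 90 regions, which are shorter. It held a match for 16 of the 90 (17.8%), against 13.8% of all 76044 regions and 29.2% of the 2832 regions gained in SKBR3. Of the 6 regions gained around these genes, 4 had a match in that stretch and 3 within the region itself. The AP-1 motif, TGACTCA or TGAGTCA, was found in the stretch of 18 of the 90 (20%), against 23% of all regions and 36.4% of those gained. Of the 6, 3 had it in the stretch and 1 within the region itself. All 10 genes were matched to a RefSeq promoter running from 250 bases before the start to 50 after it. Only those of BIRC3 (2 matches) and TRAF3 (1 match) held the NF-κB consensus, which 5.91% of 35116 promoters hold. The TRAF1 promoter in RefSeq, chr9:120929122-120929421, lies at the upstream start and not in the region that appeared with TWEAK. The region upstream of BIRC3 held no NF-κB match. A match says only that these letters are there.

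TRAF2 is the adaptor that brings the cIAPs to the receptor. Its start region, within chr9:136880928-136907763, held peaks among the strongest in SKBR3, the highest at percentiles of 98.7 and 98.4 untreated and 98.8 and 99.4 with TWEAK. In the untreated lists that highest peak began 7.6 and 7.4 kb inside the gene. The peaks over the start itself stood at 90.7 and 85.7. With TWEAK, a single peak spanned both places in replicate 1, and the start peak of replicate 2 stood at 99.2. A difference at the start alone was not tested. In MDA-MB-453 the values were 68.0 and 62.5 untreated and 73.4 and 69.3 with TWEAK. The line difference of the highest peak in the region was 30.6 points (SE 1.60, limma adjusted p = 1.9e-05). The covered length of the region differed by 3.10 on the log2 scale (SE 0.08, limma adjusted p = 8.0e-07). The SKBR3 peaks covered between 19570 and 26786 bp and the MDA-MB-453 peaks between 1740 and 4122 bp. In all, between 50.63 and 91.69 kb of the TRAF2 window was covered in SKBR3 and between 16 and 18.88 kb in MDA-MB-453.

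Because SKBR3 peaks run across the TRAF2 gene, a change within it is hidden when both lines are merged. With the peaks of MDA-MB-453 merged alone, an alternative chosen after the data were seen, 2 of 53 regions around these genes were gained, where 1.33% of all 42831 regions of that line were. The stronger of them, chr9:136901343-136903448 in an intron of TRAF2, was in neither untreated list and at percentiles of 39.4 and 47.2 with TWEAK, with peaks of 1976 and 1789 bp. It is the region whose stretch with 2 matches to the NF-κB consensus is printed above. The other, chr9:136838802-136839362 in an exon of RABL6, had percentiles of 5.1 and 1.4. Over the whole merged region the MDA-MB-453 peaks covered 1740 and 1763 bp untreated and 4122 and 4037 bp with TWEAK, a log2 difference of 1.22 that missed the threshold (limma adjusted p = 0.0536).

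TRAF3 is the adaptor that hands NIK to the cIAPs. Its start region, within chr14:102774319-102778773, had percentiles of 72.2 and 66.8 untreated and 78.9 and 77.7 with TWEAK in SKBR3. In MDA-MB-453 they were 8.7 and 23.7 untreated and 38.3 and 44.3 with TWEAK. Within each line the TWEAK values lie above the untreated ones, but neither difference passed the test, at 8.85 points in SKBR3 (SE 5.56, limma adjusted p = 0.544) and 25.1 points in MDA-MB-453 (SE 5.56, limma adjusted p = 0.465). The intronic region chr14:102867960-102869020 was the region lost in SKBR3, with percentiles of 44.5 and 37.8 untreated and no peak with TWEAK, a mean difference of -41.1 points, with no p given for the reason stated at TRAF1. Another intronic region, chr14:102799578-102800048, was gained there, at 37.6 and 17.0. No MDA-MB-453 list held either of them. The strongest distal SKBR3 region of the window, the intronic chr14:102860675-102865219, was at percentiles between 57.4 and 62.6 in SKBR3 and absent in MDA-MB-453. The strongest distal MDA-MB-453 region, chr14:102948626-102950795 in an exon of CDC42BPB, was at percentiles between 73.3 and 79.4 there.

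**Figure D4:**
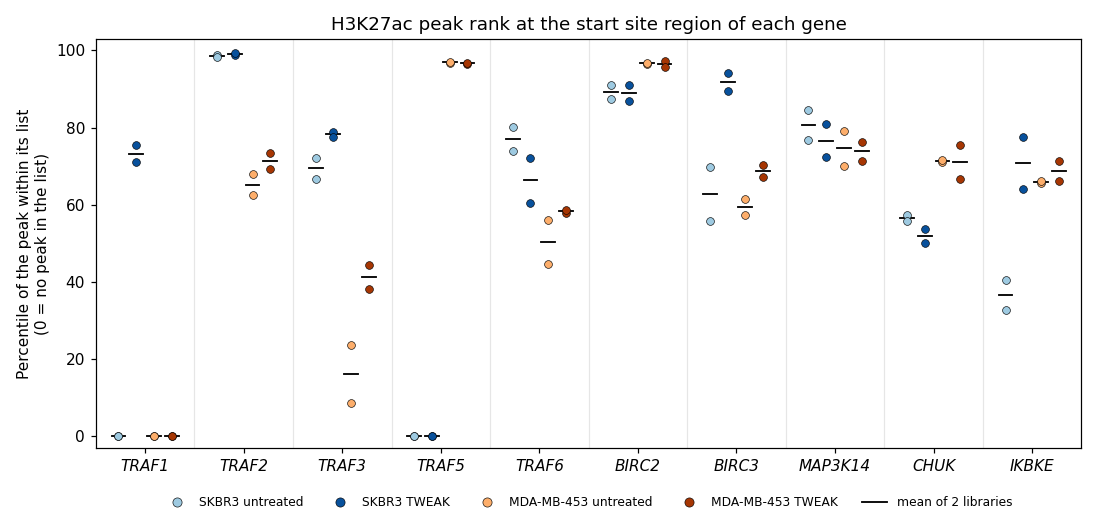
Percentile within its own list of the strongest peak in the start site region of each of the 10 genes, with 0 where the list held no peak. Each point is 1 library and each black line the mean of 2 libraries. TRAF1 has a peak only in TWEAK-treated SKBR3 libraries, TRAF5 only in MDA-MB-453 libraries, and BIRC3 and IKBKE lie higher in TWEAK-treated than in untreated SKBR3 libraries.

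TRAF5, an adaptor of several TNF receptors, was marked at its start site in MDA-MB-453 only. Within chr1:211326367-211333075 the percentile was 96.8 and 97.1 untreated and 96.5 and 96.8 with TWEAK, and no SKBR3 list held a peak. The mean line difference was -96.8 points, with no p given, since only MDA-MB-453 brought the region into the test. The window held 10.42, 11.16, 10.70 and 10.21 kb in MDA-MB-453 and between 0.63 and 0.72 kb in SKBR3. The SKBR3 length came from a single region, chr1:211382045-211383937 outside protein-coding genes, which was strong in both lines, at percentiles between 85.3 and 93.4 in SKBR3 and of 99.3 or more in MDA-MB-453.

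CHUK encodes IKKα, the kinase that NIK activates. Its start region, within chr10:100228549-100230374, had percentiles of 57.4 and 55.8 untreated and 50.1 and 53.8 with TWEAK in SKBR3, all below the 71.1 and 71.5 untreated and 75.5 and 66.6 with TWEAK in MDA-MB-453. The line difference was -16.9 points (SE 2.42, limma adjusted p = 0.00137). The window had between 2.89 and 3.73 kb covered in SKBR3 and between 13.15 and 15.45 kb in MDA-MB-453. The excess lay partly in 4 regions found in every MDA-MB-453 library and never in SKBR3, 2 of them outside protein-coding genes and 2 in exons of ERLIN1. No CHUK region was called for TWEAK.

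MAP3K14 encodes NIK, which acts above IKKα. Its start region, within chr17:45310617-45322639, had percentiles of 76.8 and 84.7 untreated and 72.4 and 80.9 with TWEAK in SKBR3, and 70.0, 79.2, 76.4 and 71.4 in MDA-MB-453. The groups overlap, and the line difference was 4.42 points (SE 3.38, limma adjusted p = 0.271). Its covered length differed, from 9590 to 11640 bp in SKBR3 and from 5234 to 5901 bp in MDA-MB-453 (log2 difference 0.95, SE 0.06, limma adjusted p = 2.8e-05). The window held between 29.06 and 36.20 kb in SKBR3 and between 10.76 and 12.16 kb in MDA-MB-453.

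TRAF6, the adaptor of interleukin-1 and Toll-like receptors, was the only gene of the 10 whose window difference between the lines missed the threshold. It had 1.74, 2.36, 1.93 and 2.86 kb in SKBR3 and 2.36, 1.94, 1.42 and 2.29 kb in MDA-MB-453, a log2 difference of 0.10 (SE 0.15, limma adjusted p = 0.567). Its start region, within chr11:36509190-36510664, had percentiles of 80.2, 73.9, 72.2 and 60.5 in SKBR3 and of 56.2, 44.7, 58.0 and 58.7 in MDA-MB-453, a difference of 17.3 points (SE 3.90, limma adjusted p = 0.00925). The region also takes in an intron of RAG1.

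**Figure D5:**
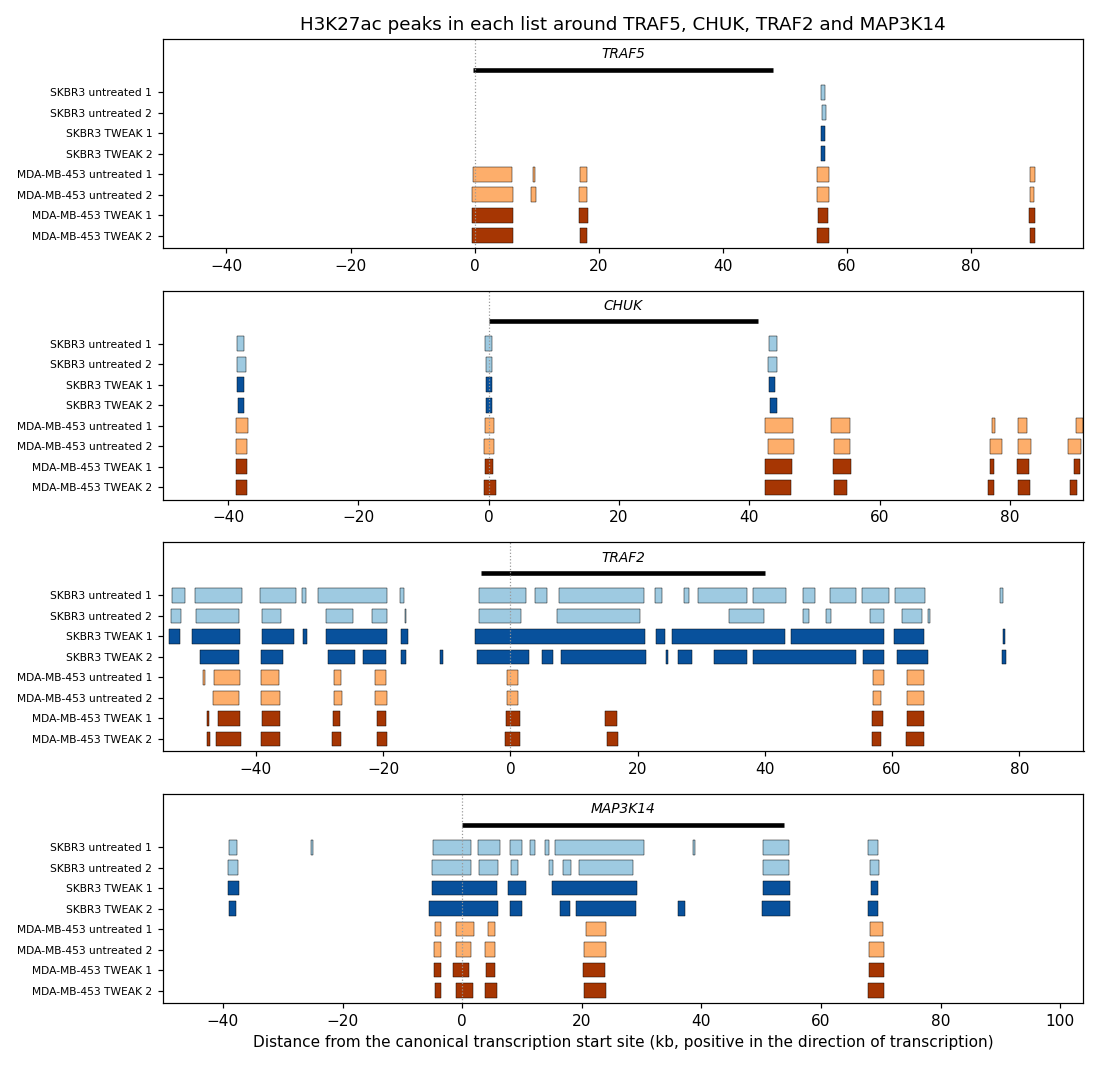
Peaks of each list around TRAF5, CHUK, TRAF2 and MAP3K14, drawn to scale against the distance in kb from the canonical transcription start site, positive in the direction of transcription. Each row is 1 library, each box 1 peak and each black bar the gene body. SKBR3 rows hold no peak at the TRAF5 start, and wide peaks run along TRAF2 and MAP3K14 where MDA-MB-453 rows hold short ones.

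Compared over both treatments, 6 of the 10 windows had more covered length in SKBR3, against 47.6% of all windows, and 3 had less, against 27%. The log2 differences ran from 2.01 for TRAF2 through MAP3K14 (1.47), BIRC2 (1.05), TRAF3 (0.80) and BIRC3 (0.77) to IKBKE (0.34), and from -0.92 for TRAF1 through CHUK (-1.80) to TRAF5 (-2.79). With only peaks of q at or under 1e-05 the IKBKE difference turned to -0.49 (limma adjusted p = 0.346). By rank, 27 of the 69 regions were higher in SKBR3 (39.4% of all regions) and 25 were lower (27.9%). Among the 29 with peaks in at least 2 lists of each line, 7 were higher (35.8% of such regions) and 12 lower (29.1%). By width, 9 of the 26 were wider in SKBR3 (31% of all regions) and 8 narrower (29.5%). By presence, 9 of the 90 regions were found in every SKBR3 library and never in MDA-MB-453 (14.1% of all regions), and 10 showed the reverse (10.5%). Most windows differed between the lines genome-wide, so these counts alone set the 10 genes apart from no others.

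Other genes of the pathway were grouped into 17 genes acting near the receptor, 14 kinase and adaptor genes of the IKK, TAK1 and MAP kinase branches, and 9 NF-κB and feedback genes. Of these 40 genes, 39 had a start site peak in all 8 lists, and the share of all genes that did is not given. TWEAK called 0 of the 40 windows in either line by limma, where 1.58% of all windows were called higher in SKBR3 and 0% in MDA-MB-453. It also called 0 of the 40 start regions in either line. Of all regions tested, 4.41% were called higher and 1.15% lower in SKBR3, and 0% in MDA-MB-453. TNFRSF12A, which encodes Fn14, had start site percentiles of 93.9 and 93.6 untreated and 95.4 and 96.5 with TWEAK in SKBR3, and 81.6, 80.3, 81.4 and 84.5 in MDA-MB-453. The median SKBR3 difference in covered length was 0.06 for the receptor-near genes, 0.14 for the kinase genes and 0.09 for the NF-κB genes on the log2 scale. TNFAIP3, the gene of the feedback inhibitor A20, was named after its values were seen. It had 5.79 and 4.96 kb untreated and 8.54 and 12.78 kb with TWEAK in SKBR3, a log2 difference of 0.85 (SE 0.18) that did not pass the threshold (limma adjusted p = 0.0785). Between the lines, 26 of the 40 windows had more covered length in SKBR3 (47.6% of all windows) and 5 had less (27%).

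Away from start sites, the strongest region was the same one in both lines for TRAF1, TRAF5, TRAF6 and MAP3K14. In the TRAF1 window it was chr9:120934424-120936691, in an intron of C5, at percentiles between 26.6 and 59.7 in SKBR3 and between 65.6 and 71.9 in MDA-MB-453. In the MAP3K14 window it was chr17:45246463-45249222, within FMNL1, at percentiles between 60.3 and 72.3 in SKBR3 and between 84.9 and 89.1 in MDA-MB-453. In the TRAF6 window it was chr11:36447718-36449456, in an intron of PRR5L, between 42.6 and 54.2 in SKBR3 and between 15.1 and 33.4 in MDA-MB-453. In the other windows the lines parted. The strongest distal TRAF2 region of SKBR3, chr9:136869222-136870476, had a mean percentile of only 18.6, and with both lines merged the TRAF2 window held no distal region in MDA-MB-453. The strongest distal IKBKE region of MDA-MB-453, chr1:206437972-206439581, stood at percentiles between 46.0 and 61.3 there and was absent from SKBR3, while that of SKBR3, chr1:206447639-206450446 within SRGAP2, was in both lines. The strongest distal CHUK region of MDA-MB-453, chr10:100173995-100177011, stood between 33.7 and 43.9 and was likewise absent from SKBR3. At BIRC3, the strongest distal MDA-MB-453 region was chr11:102267558-102269318, between 64.3 and 76.1 there and between 45.3 and 59.5 in SKBR3.

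The pattern of covered length over the 8 lists was also compared with that of every other window, as a description across libraries that share their line and treatment. The window most like that of TRAF1 was that of CTNNA2, with a Pearson r of 0.99 over 8 lists, and 79 of 18229 windows had an r above 0.95. The window most like that of BIRC3 was that of BCL2L13, with an r of 0.996, and 157 of 18226 had an r above 0.95.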

How the data were processed

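H3K27ac ChIP-seq peak lists of 8 libraries were analysed, with 2 libraries per group and 4 groups. The 2 input samples had no file and were not used here. The authors trimmed reads with Trimmomatic, aligned them to hg38 with Bowtie2, called peaks with MACS2 against input and removed blacklisted regions, and the versions were not given in the sources used here. Each deposited list gives a score, which equals 10 times the −log10 q cut to a whole number, a fold enrichment over input, a −log10 p and a −log10 q, all from the authors' caller on single libraries. Options of the caller were not given in the sources used here. No read counts were used, so depth is unknown and no interval from depth was made. The study's DiffBind test needs reads and was not repeated.

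Peaks on chromosomes 1 to 22 and X that overlapped by 1 bp were merged across lists, and windows were gene bodies of GENCODE 44 with 50 kb on each side. Percentiles used average ranks of the score. Regions in at least 2 lists were tested by percentile, with 0 for an absent peak, and a region that met this minimum only through the group in which it was high is described without a p. Windows with a peak in at least 2 lists were tested by log2 of kb plus a pseudocount of 1 kb, and regions in all 8 lists by log2 of bp. The pseudocount understates changes of windows with little coverage. Each was fitted with limma 3.58.1 (R 4.3.3; lmFit, contrasts.fit, eBayes with trend) on all 8 libraries as 4 groups that share an estimate of the spread, without covariates. P-values were two-sided, adjusted by Benjamini-Hochberg over all features and called under 0.05. The difference between lines is the mean over treatments in SKBR3 minus that in MDA-MB-453. Tables and figures were made with Python 3.11.15, pandas 2.3.3, numpy 2.4.6, scipy 1.17.1 and matplotlib 3.10.9, and the fits were tested on simulated data.

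The 10 genes and all lists were chosen with earlier results of these data known. The text names the start region and window of each gene, up to 6 gained, lost or called regions per contrast by size of difference, and the strongest region of each line in a window that is over 1 kb from a protein-coding start. Promoters came from RefSeq (GRCh38.p14). Other thresholds, list sizes, overlaps, merging, windows, ranking, scales, filters, a replicate block and leaving out each library were tried.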

Additional observations from a re-analysis of the deposited data

Results flagged for a closer look

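For 3 regions the TWEAK difference in SKBR3 was called different from that in MDA-MB-453 (limma interaction term over 57957 regions). At the TRAF1 start, chr9:120924658-120927651, the difference was 73.3 percentile points larger in SKBR3. Downstream of IKBKE, chr1:206503402-206504958, it was 70.7 points larger. In the TRAF3 intron, chr14:102867960-102869020, it was -41.1 points. Each region entered the test only through the SKBR3 group in which it was high and had no peak in MDA-MB-453, so the interaction equals the SKBR3 difference and no p is given. With SKBR3 TWEAK replicate 2 left out, the TRAF1 region was in a single list and was not tested. The count fell to 0 without any one of the MDA-MB-453 libraries or without SKBR3 TWEAK replicate 2.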

How the results depend on the processing

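Of the single genes and regions followed through the alternatives, 993 values kept their direction and side of the threshold, 204 kept their direction only and 3 reversed. The reversed ones were the line differences of the IKBKE window with q at or under 1e-05 (-0.49) and, where 50% of a region had to be covered, of the BIRC2 start region (44.5) and chr9:136946757-136952091 in the TRAF2 window (41.0). The causes were not tested. The 993 and 204 pool line differences with TWEAK differences. For TWEAK in SKBR3, the window call was kept in 7 of 16 alternatives for TRAF1 and for BIRC2. It was kept in 6 of 16 for BIRC3 and 4 of 16 for IKBKE. The rank call was kept in 9 of 18 at the BIRC3 start and 7 of 18 at the IKBKE start. It was kept in 5 of 17 at the far end of MAP3K14 and 12 of 17 upstream of BIRC3. Regions whose calls restate presence are not listed here. With q at or under 1e-05, 0 regions were lost in SKBR3, 1 was gained and 0 lost in MDA-MB-453, 5 were called by rank for TWEAK in SKBR3, 29 differed by rank between the lines, and 2 widths were called for TWEAK in SKBR3 and 9 between the lines. With lists of equal size, 2 were gained, 2 lost and 6 called in SKBR3. With 50% covered, 0 were lost in SKBR3, 1 was gained and 1 called in MDA-MB-453, and 9 were called for the difference of TWEAK effects. With 100 kb on each side, 1 was gained in MDA-MB-453, 80 differed between the lines and 0 windows were called for TWEAK in SKBR3, and with 25 kb 2 were (TRAF1 and BIRC3). Among regions in all 8 lists, 0 were called for TWEAK in SKBR3, 20 between the lines and 0 for the difference of effects, and on a logit scale 8 were called for the latter. With peaks merged within their own line, 2 were gained in MDA-MB-453. With the libraries of that line only, 0 regions, 0 windows and 0 widths were called in SKBR3. Both were chosen after the data were seen.

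Gained and lost counts of a line can change only when 1 of its own libraries is left out, and are given for those. Leaving out 1 library gave between 7 and 15 gained and between 1 and 7 lost regions in SKBR3, and between 0 and 1 gained and between 1 and 2 lost in MDA-MB-453. It gave between 5 and 11 regions, between 0 and 4 windows and between 0 and 1 widths called for TWEAK in SKBR3, between 0 and 4 regions and between 0 and 3 windows for the difference of effects, and between 40 and 48 regions between the lines. A left-out library left its group with 1 library, which was assumed to vary like the others.

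The replicate numbers are not said to mark a shared batch. Replicate differences of untreated and TWEAK libraries correlated at 0.336 by rank and 0.473 by window in SKBR3 and at -0.044 and -0.037 in MDA-MB-453. With a replicate block, 5 regions, 4 windows and 0 widths were called for TWEAK in SKBR3 and 0 regions for the difference of effects.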
